A study of Homo sapiens with 6 samples.

Results

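Nascent transcription of the small nucleolar RNA (snoRNA) host genes was described in A375 cells, an established human malignant melanoma line. The genes are those whose symbol is SNHG with a number, together with GAS5 and ZNFX1-AS1. They occupy 25 of 22442 rows of the deposited tables and make up 14 of 12438 gene symbols. These are SNHG1, SNHG3 to SNHG13, GAS5 and ZNFX1-AS1, of which ZNFX1-AS1 is now named ZFAS1 and SNHG13 is now named DANCR. Cells were treated for 48 h with 25 µM A771726, with 25 µM leflunomide or with the solvent DMSO, and each group held 2 libraries of global run-on sequencing (GRO-seq), which reads RNA that engaged polymerase extends in isolated nuclei. Leflunomide is an isoxazole prodrug, and A771726 is the active metabolite formed when that ring opens. The metabolite inhibits dihydroorotate dehydrogenase, an enzyme of pyrimidine nucleotide synthesis. The set was proposed with its gene body, promoter and ratio values in these same comparisons in view, so it counts as chosen by them and its changes are a description.

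A snoRNA host gene carries snoRNAs in its introns. After splicing, the snoRNAs are trimmed from the introns and guide the chemical modification of ribosomal RNA in the nucleolus, whereas the spliced exons of many non-coding hosts are short-lived. Many hosts, protein-coding ones included, belong to the terminal oligopyrimidine class, whose transcripts start with a C followed by a run of pyrimidines. GRO-seq reads transcription across the whole locus, introns and exons alike, and is not a measure of the spliced RNA or of the mature snoRNA.

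Lineage markers were checked first. SOX10, a neural crest factor of melanocytes and melanoma, had a gene body density of 0.273 with A771726, 0.330 with leflunomide and 0.329 in DMSO. MITF, MLANA and PMEL, genes of differentiated melanocytes, had gene body densities between 0.0046 and 0.0226 and promoter densities of 0 in DMSO. The keratinocyte gene KRT14 lay in the same low range, with gene body densities of 0.00385 with A771726, 0.0101 with leflunomide and 0.0204 in DMSO, and a promoter density of 0 in the 3 groups. The other markers looked for (TYR, DCT, KRT5, PTPRC and HBB) were not analysed here.

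The promoters of 12 members (all but SNHG6 and SNHG9) were found in the RefSeq promoter table of GRCh38.p14, another build than the hg18 of the deposited files. Stretches of 60 bases before and 30 bases from the annotated start are shown for 4 members that hold TATAA and CTTT in the windows given next. SNHG7, which holds TATAA alone, and SNHG3, which holds neither, follow. CTTT in its window is not the same as a pyrimidine-rich start. In SNHG8 it ends just before the annotated start, and SNHG7 has pyrimidines around its start without it. Capitals mark TATAA between 40 and 20 bases before the start and CTTT from 5 bases before to 10 bases after it.
SNHG5 (chr6:85678704-85678793, minus strand): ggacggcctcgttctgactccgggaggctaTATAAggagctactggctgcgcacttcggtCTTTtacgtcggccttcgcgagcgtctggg
SNHG8 (chr4:118278702-118278791, plus strand): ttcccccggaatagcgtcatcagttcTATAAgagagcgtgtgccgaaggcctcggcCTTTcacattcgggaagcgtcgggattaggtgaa
SNHG12 (chr1:28581844-28581933, minus strand): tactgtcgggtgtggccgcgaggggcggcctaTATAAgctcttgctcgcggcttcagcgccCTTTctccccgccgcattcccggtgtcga
ZNFX1-AS1 (chr20:49278582-49278671, plus strand): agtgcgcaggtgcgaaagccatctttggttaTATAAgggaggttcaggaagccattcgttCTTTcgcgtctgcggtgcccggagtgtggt
SNHG7 (chr9:136728155-136728244, minus strand): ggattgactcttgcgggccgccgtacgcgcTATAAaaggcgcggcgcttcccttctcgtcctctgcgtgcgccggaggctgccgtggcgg
SNHG3 (chr1:28505883-28505972, plus strand): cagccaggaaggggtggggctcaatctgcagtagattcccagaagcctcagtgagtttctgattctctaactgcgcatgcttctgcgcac
TATAA was found in that window in 5 of 12 members, and in 3.77% of 35116 promoters of the same length. CTTT was found in 5 of 12 members and in 6.71% of promoters, and both together in 4 of 12 members and in 0.282% of promoters. On the other strand, TTATA lay in that window in 1 of 12 members (1.59% of promoters) and AAAG in 0 of 12 (4.30%). The letters and the windows were chosen after the promoters of these genes had been read, so the counts describe these sequences and support nothing. The deposited rows of ZNFX1-AS1 use 2 different starts, and which of them is the start shown here was not tested.

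All 14 host genes had a lower mean gene body density with A771726 than in DMSO, and all 14 also had a lower one with leflunomide than in DMSO. The median log2 change was −1.22 with A771726 and −0.54 with leflunomide, and the median over all 8706 genes compared was −0.52 and −0.06. Most of the members are among the most densely transcribed genes of these cells, and 12 of the 14 belong to the 1244 genes whose mean gene body density reaches the 90th percentile. The median change of those 1244 genes was −0.67 with A771726 and −0.19 with leflunomide. The median member had a gene body density of 0.206 with A771726, 0.297 with leflunomide and 0.529 in DMSO, and the median gene 0.0128, 0.0188 and 0.0196. These are the authors' means of 2 libraries, and neither their unit nor the scaling between libraries was found in the labels or headers. Fewer polymerases per cell at these genes therefore cannot be told apart from a difference in scaling. The members' changes can be compared only with those of other genes.

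At least 2-fold lower densities with A771726 than in DMSO were found in 11 of 14 members, where 18.5% of all genes and 24% of the 1244 densest genes were. With leflunomide against DMSO this held for 1 of 14 (SNHG5), where 4.49% of all genes and 3.54% of the densest were. With A771726 against leflunomide it held for 1 of 14 (SNHG6), where 12.4% of all genes and 8.92% of the densest were. With a 5 times larger pseudocount the first count was 9 of 14. The members were chosen with these contrasts known, so nothing is read from the shares. Relative to the median gene, 2 of 14 members (SNHG5 and SNHG8) were at least 2-fold lower with A771726 than in DMSO (5.73% of all genes), although all 14 stayed below the median gene. On that scale 1 of 14 was with leflunomide against DMSO (3.89%) and 0 of 14 with A771726 against leflunomide (3.77%).

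**Figure D1:**
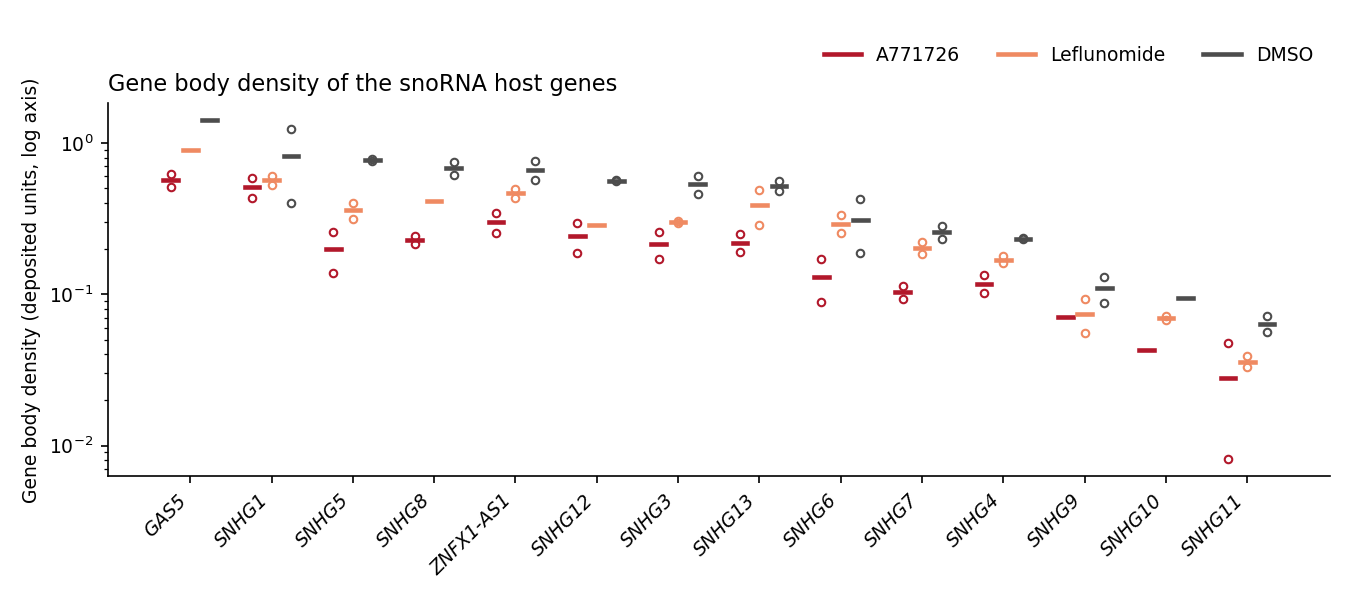
Gene body density of each snoRNA host gene on a log axis, with bars for the authors' mean of each group (A771726, leflunomide and DMSO from left to right) and circles for single libraries where they could be recovered. SNHG5 has the A771726 circles (0.259 and 0.138) below both leflunomide circles (0.315 and 0.402) and both DMSO circles (0.788 and 0.761), whereas the circles of SNHG1 overlap.

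The values of single libraries were solved from the deposited means and ratios, and within a group the libraries below carry no replicate letter. SNHG5, host of SNORD50A and SNORD50B, had the largest gene body change of the members against DMSO with both compounds. Its gene body density was 0.259 and 0.138 in the A771726 libraries, 0.315 and 0.402 in the leflunomide libraries and 0.788 and 0.761 in the DMSO libraries. The 3 groups did not overlap. The log2 change of the means was −1.95 with A771726 and −1.11 with leflunomide, and the limma fit over all 4578 genes with recovered libraries gave −2.02 (95% interval −2.83 to −1.21) and −1.12 (−1.93 to −0.31).

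SNHG3, which carries SNORA73A and SNORA73B, had 0.171 and 0.257 in the A771726 libraries, 0.305 and 0.296 in the leflunomide libraries and 0.462 and 0.609 in the DMSO libraries. Here too the 3 groups stood apart. The limma estimate for SNHG3 was −1.33 with A771726 (−2.03 to −0.62) and −0.81 with leflunomide (−1.52 to −0.11). ZNFX1-AS1, host of the SNORD12 family, had 0.343 and 0.254 in the A771726 libraries, 0.498 and 0.434 in the leflunomide libraries and 0.762 and 0.569 in the DMSO libraries. Its groups did not overlap either, and its estimates were −1.15 (−1.83 to −0.47) with A771726 and −0.50 (−1.18 to 0.18) with leflunomide.

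SNHG7 had 0.0929 and 0.113 in the A771726 libraries, 0.184 and 0.221 in the leflunomide libraries and 0.283 and 0.232 in the DMSO libraries. SNHG4 had 0.102 and 0.133 with A771726, 0.161 and 0.179 with leflunomide and 0.232 and 0.234 in DMSO. For both genes the 3 groups were separate, in the order A771726, leflunomide, DMSO. SNHG8 (0.215 and 0.243 with A771726, 0.616 and 0.747 in DMSO) and SNHG12 (0.295 and 0.187 with A771726, 0.567 and 0.560 in DMSO) were also separate. Their leflunomide libraries have 2 candidate solutions each, so only the mean is given, 0.416 for SNHG8 and 0.286 for SNHG12. The share of all genes whose 3 groups stand apart was not counted, so nothing is read from such separation. Shares for pairs of groups are given below.

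In 2 genes leflunomide and DMSO overlapped while A771726 lay below both. SNHG13 had 0.191 and 0.248 in the A771726 libraries, 0.487 and 0.288 in the leflunomide libraries and 0.483 and 0.562 in the DMSO libraries. SNHG6, host of SNORD87, had 0.172 and 0.0892 with A771726, 0.333 and 0.254 with leflunomide and 0.428 and 0.188 in DMSO. In SNHG6 the lower DMSO library lay close to the higher A771726 library, and its means with leflunomide and in DMSO (0.293 and 0.308) differed by a log2 change of −0.07. SNHG11 had 0.0476 and 0.0081 in the A771726 libraries, 0.0329 and 0.0388 in the leflunomide libraries and 0.0565 and 0.0716 in the DMSO libraries. Its A771726 mean of 0.0279 rests on a large difference between the libraries.

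SNHG1, which carries 8 SNORD genes, is the one member with recovered libraries whose A771726 and DMSO libraries overlapped. It had 0.433 and 0.585 with A771726, 0.526 and 0.603 with leflunomide and 0.402 and 1.24 in DMSO, so its DMSO libraries enclose all the others, and the limma interval with A771726 runs from −1.65 to 0.67. GAS5, the member with the highest density, had a mean of 0.568 with A771726, 0.896 with leflunomide and 1.41 in DMSO. Single libraries of GAS5 are known for A771726 alone (0.510 and 0.626), since leflunomide and DMSO each have 2 candidate solutions. SNHG9 had a mean of 0.0702 with A771726, where 3 solutions are possible, 0.0927 and 0.0552 in the leflunomide libraries and 0.131 and 0.0875 in the DMSO libraries, and leflunomide and DMSO overlapped. SNHG10 had means of 0.0428 with A771726, 0.0696 with leflunomide and 0.0942 in DMSO.

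In gene bodies, both A771726 libraries were lower than both DMSO libraries in 10 of 11 members with recovered libraries (54% of all genes), with SNHG1 as the other one. Both leflunomide libraries were lower than both DMSO libraries in 6 of 10 members (21.2%). Between the compounds at the same dose and time, both A771726 libraries were lower than both leflunomide libraries in 7 of 9 members (55.1%). The limma interval of A771726 over leflunomide excluded 0 in SNHG5 (−0.91, −1.72 to −0.09), SNHG6 (−1.22, −2.31 to −0.12), SNHG7 (−0.96, −1.62 to −0.30) and SNHG13 (−0.78, −1.55 to −0.01). It included 0 in SNHG1 (−1.32 to 1.00), SNHG3 (−1.22 to 0.19), SNHG4 (−1.18 to 0.12), SNHG11 (−2.30 to 0.81) and ZNFX1-AS1 (−1.33 to 0.03). An interval that excludes 0 equals an unadjusted limma p under 0.05, which 14.9% of all genes had in this comparison. Each of these intervals, also where it excludes 0, includes the median change of the 4578 genes in this fit (−0.51). The members were chosen with this contrast known, so nothing is read from the split. With limma's Benjamini-Hochberg adjustment over all genes, 0 of 4578 genes (0%) were called in each of the 3 comparisons, members included. An unadjusted limma p under 0.05 was found in 1037 genes (22.7%) for A771726 over DMSO, 216 (4.72%) for leflunomide over DMSO and 684 (14.9%) for A771726 over leflunomide. In the same test on the 3199 genes whose libraries could be identified, 0 genes were called with all libraries. Some fits with a library left out gave calls, in both directions, and are described in the last paragraph.

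**Figure D2:**
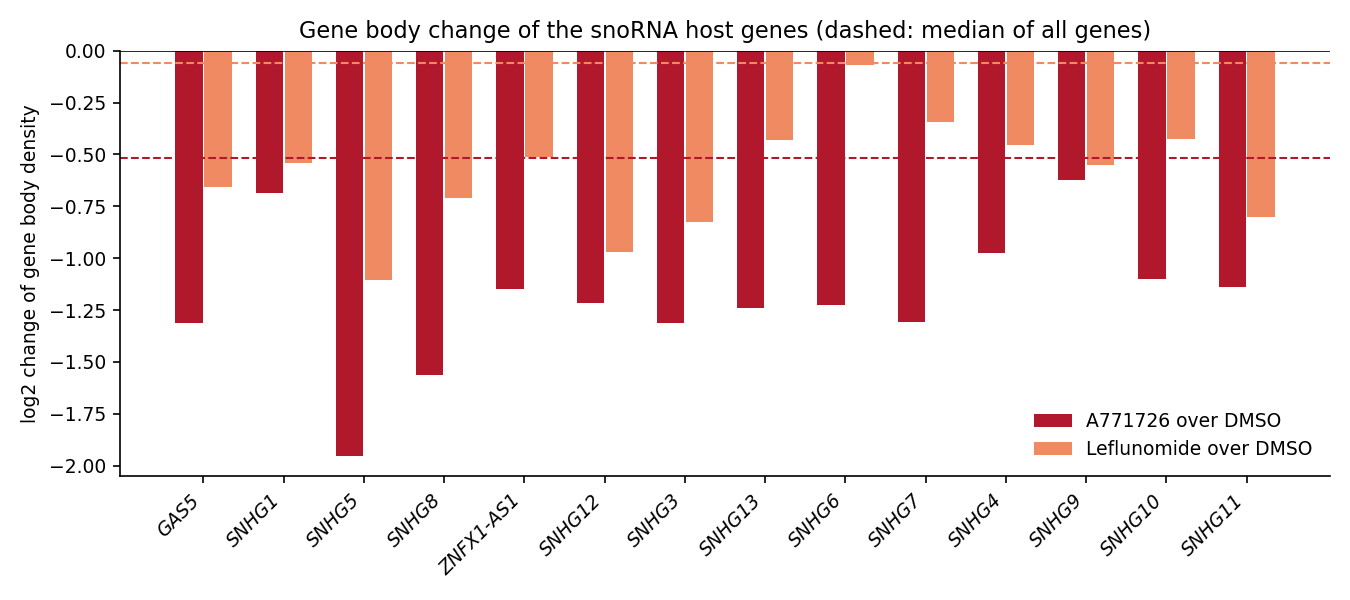
Log2 change of the mean gene body density of each host gene, for A771726 over DMSO (left bars) and leflunomide over DMSO (right bars), with dashed lines at the medians of all genes (−0.52 and −0.06). All bars point down and lie below their dashed line, from −1.95 in SNHG5 to −0.62 in SNHG9 with A771726.

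Promoter densities were lower with A771726 as well, with a median log2 change over the members of −1.14 (all 8838 genes compared, 0.00), and of −0.53 with leflunomide (all genes, 0.22). At least 2-fold lower promoters with A771726 than in DMSO were found in 9 of 14 members (26% of all genes), with leflunomide in 0 of 14 (16%), and with A771726 against leflunomide in 6 of 14 (30.6%). The first count is 7 of 14 with a 5 times larger pseudocount. The last count is 1 of 14 with that pseudocount and 1 of 14 relative to the median gene. The densest promoters in DMSO and with leflunomide were those of GAS5 (1.54 with A771726, 2.12 with leflunomide and 3.68 in DMSO), SNHG1 (1.29, 1.75 and 2.80), SNHG8 (1.01, 1.61 and 2.40) and SNHG3 (0.506, 1.16 and 1.99), each in the same order of groups. With A771726 the promoters of SNHG5 (0.769) and SNHG9 (0.589) were denser than that of SNHG3.

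SNHG3 had promoter densities of 0.343 and 0.669 in the A771726 libraries, 0.798 and 1.52 in the leflunomide libraries and 1.81 and 2.17 in the DMSO libraries. SNHG1 had 1.27 and 1.31 with A771726, 1.62 and 1.89 with leflunomide and 2.94 and 2.66 in DMSO. The 3 groups were separate at both promoters, unlike the gene body of SNHG1. SNHG5 had 0.818 and 0.720 with A771726, 0.964 and 1.02 with leflunomide and 1.08 and 0.728 in DMSO, so its DMSO libraries reach across the others. Its promoter mean changed by −0.23 on the log2 scale with A771726 while its gene body mean changed by −1.95.

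Several members have promoter densities of a few reads, and their folds are not stable. SNHG6 had 4 reads and 0 reads in the A771726 libraries, 3 and 4 in the leflunomide libraries and 3 and 6 in the DMSO libraries. SNHG10 was listed at 0 with A771726, at 0.0602 with leflunomide and at 0 in DMSO. In promoters, both A771726 libraries were lower than both DMSO libraries in 6 of 11 members (16.3% of all genes), which are SNHG1, SNHG3, SNHG6, SNHG8, SNHG11 and SNHG12. In SNHG6 the A771726 library of 4 reads falls below the DMSO library of 3 reads only because 1 read is worth less in it. SNHG11 had 3 and 3 reads in the A771726 libraries and 4 and 10 in the DMSO libraries. Both leflunomide libraries were lower than both DMSO libraries in 2 of 10 members (10.8%), SNHG1 and SNHG3, and both were higher in 1 of 10, SNHG13 (16.2%). Between the compounds, both A771726 libraries were lower than both leflunomide libraries in 6 of 9 promoters (21.9%). SNHG6 is among these 6, where 4 A771726 reads again count as lower than 3 leflunomide reads.

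**Figure D3:**
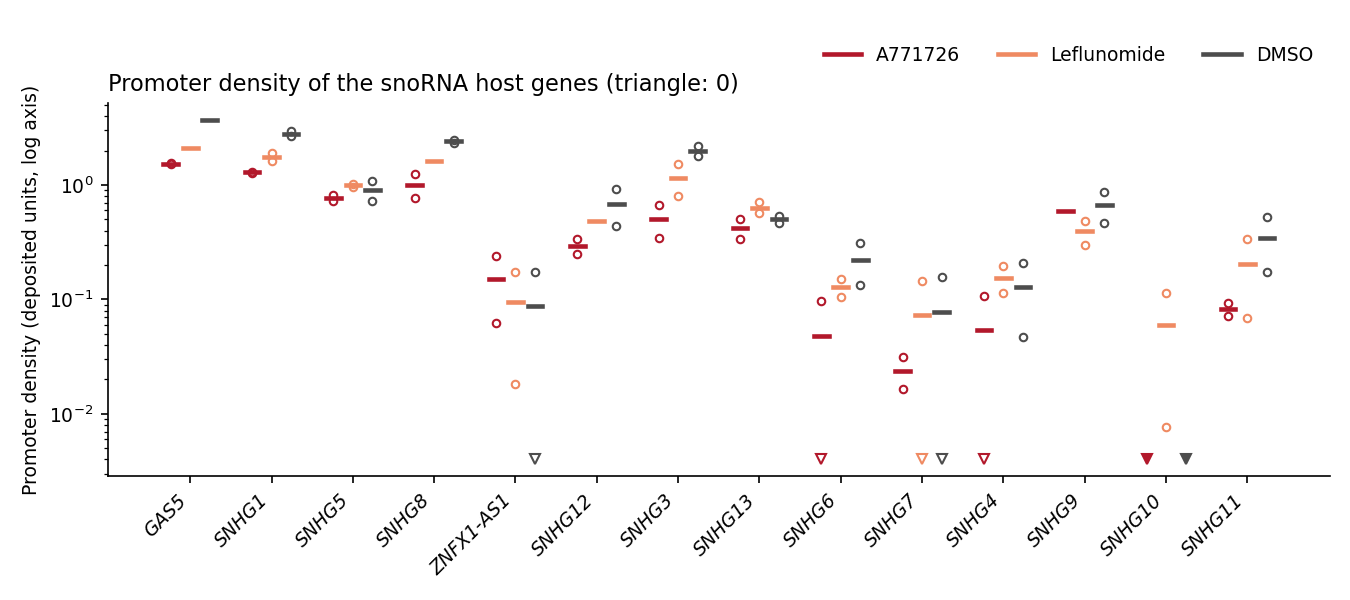
Promoter density of each host gene on a log axis, with bars for the authors' group means, circles for recovered libraries and triangles for a density of 0. The DMSO circles lie above all others in SNHG1 and SNHG3, whereas SNHG7, SNHG10 and the plotted start of ZNFX1-AS1 lie at a few reads or at 0.

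The traveling ratio, promoter density over gene body density, could be compared in 13 members (not SNHG10). Its median log2 change was 0.03 with A771726 and 0.06 with leflunomide against DMSO, and 0.42 and 0.27 over all 5173 genes compared. No row had a DMSO ratio above 7.5, while rows of the other groups did, so rows may have been limited by the DMSO ratio alone. What such a limit does to the all-gene medians and shares was not tested, and they are not a plain background for the members. A ratio at least 2-fold higher with A771726 than in DMSO was found in SNHG5 and ZNFX1-AS1, 2 of 13 members (34.6% of all genes), and one at least 2-fold lower in SNHG6, 1 of 13 (17.1%). SNHG5 had ratios of 3.16 and 5.23 in the A771726 libraries, 3.06 and 2.53 in the leflunomide libraries and 1.38 and 0.957 in the DMSO libraries, so both compounds lay above DMSO. SNHG3 had mean ratios of 2.30 with A771726, 3.87 with leflunomide and 3.74 in DMSO. SNHG9 had a mean ratio of 8.16 with A771726, above the highest DMSO ratio in the whole table (7.5), as did 15.8% of all rows with A771726, 13.3% with leflunomide and 0% in DMSO.

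The ratio of ZNFX1-AS1 depends on the annotated start. In 4 of its 5 rows the ratio was 0.474 with A771726, 0.195 with leflunomide and 0.115 in DMSO, a log2 change of 2.04 with A771726 that rests on promoter values of 10 and 2 reads in the A771726 libraries and 4 and 0 reads in the DMSO libraries. In the fifth row, NR_036659, the promoter density was 0.491 with A771726, 0.940 with leflunomide and 0.672 in DMSO, and the ratio was 1.59, 2.16 and 0.977. At that start the libraries had ratios of 2.45 and 0.737 with A771726, 1.90 and 2.41 with leflunomide and 1.32 and 0.636 in DMSO. The A771726 and DMSO libraries overlap there, and both leflunomide libraries lie above both DMSO libraries.

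**Figure D4:**
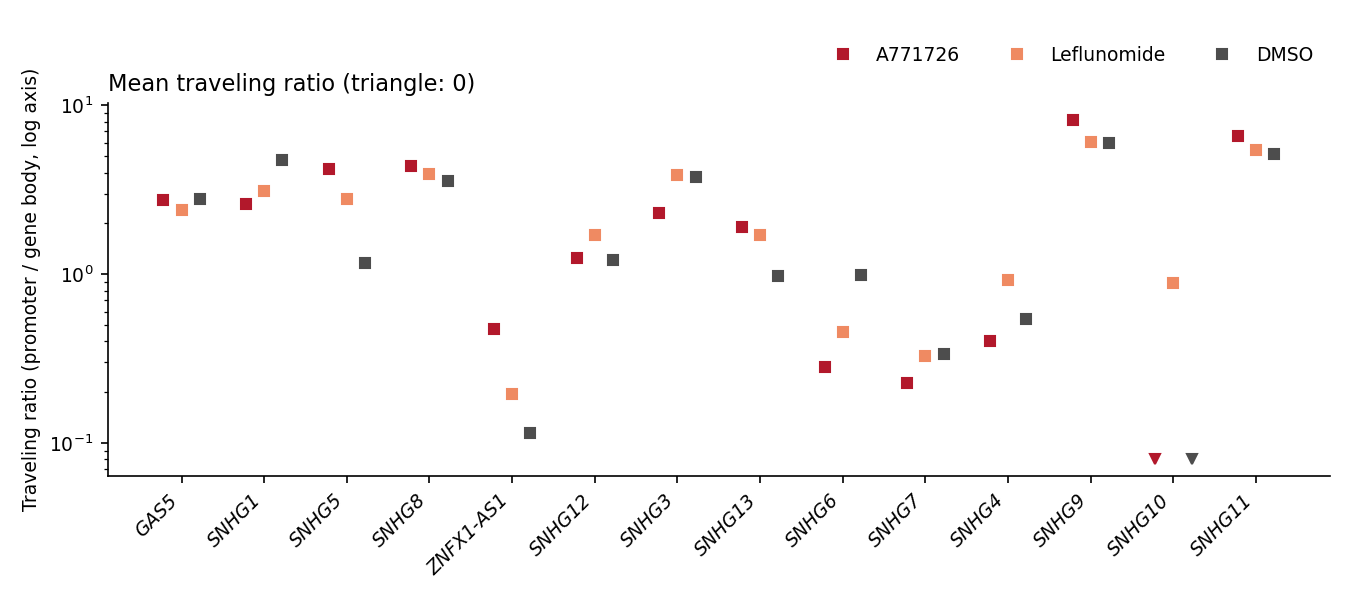
Mean traveling ratio of each host gene on a log axis in A771726, leflunomide and DMSO from left to right, with triangles for a ratio of 0. SNHG5 and ZNFX1-AS1 have the A771726 point above the DMSO point (4.20 against 1.17 in SNHG5), whereas SNHG6 has it below (0.280 against 0.985).

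Of the small RNA genes listed for the members' introns, 32 have a row of their own, and their reads overlap those of the host. Their median log2 gene body change was −1.27 with A771726 and −0.57 with leflunomide, and 20 of 32 were at least 2-fold lower with A771726 (18.5% of all genes) and 0 of 32 with leflunomide (4.49%). Relative to the median gene, 2 of 32 were with A771726 (5.73%). Rows at the same locus can share reads, so the 32 do not count as separate genes. All 8 rows in GAS5 and all 4 in SNHG12 are among the 20. SNORA26 in SNHG13 was not on the list. SNORD12, SNORD12B and SNORD12C in ZNFX1-AS1 had log2 changes of −1.26, −1.44 and −0.89 with A771726, beside −1.15 for the host. No row of SNORA73A or SNORA73B was analysed here. The 8 SNORD genes of SNHG1 ranged from −0.83 to −0.17 with A771726 and the 8 of GAS5 from −1.51 to −1.25, beside −0.69 for SNHG1 and −1.31 for GAS5. Over the other loci the lowest A771726 changes were SNORD50B in SNHG5 (−1.97), SNORA60 in SNHG11 (−1.85) and SNORD78 in GAS5 (−1.51), and the highest were SCARNA13 in SNHG10 (−0.10), SNORA78 in SNHG9 (−0.16) and SNORD31 in SNHG1 (−0.17). SNORA74A in SNHG4 was the only small RNA besides SCARNA13 with a positive leflunomide change (0.42), and reads of its near-identical copies may be split between loci.

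**Figure D5:**
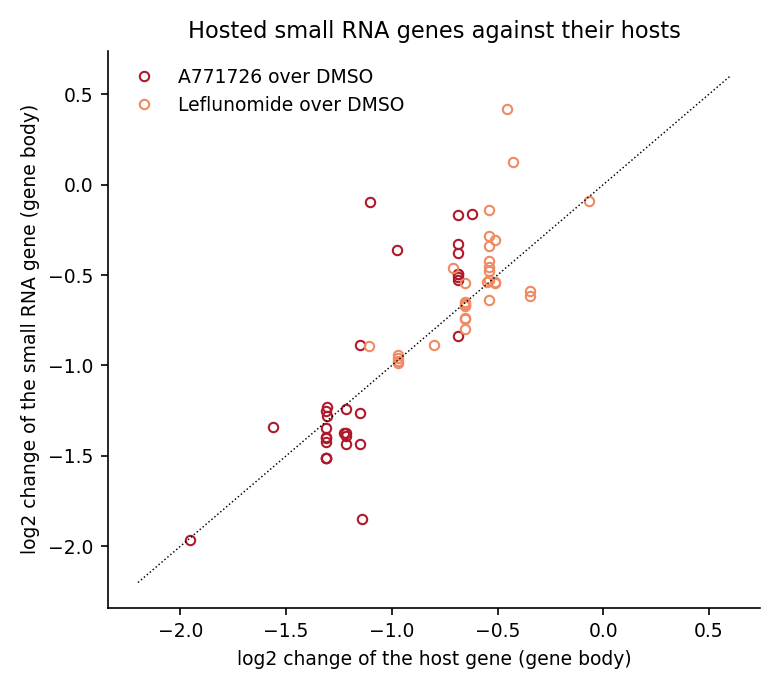
Log2 gene body change of each hosted small RNA gene against that of its host, for A771726 and leflunomide over DMSO, with a dotted line of equality. The points run along the line, and SCARNA13 with A771726 (−0.10 beside −1.10 in SNHG10) lies far above it.

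Protein-coding genes that carry snoRNAs are set beside them. The 43 measured ones had a median log2 gene body change of −0.74 with A771726 and −0.28 with leflunomide, and 10 of 43 were at least 2-fold lower with A771726 (18.5% of all genes and 24% of the 1244 densest) and 0 of 43 with leflunomide (4.49%). Relative to the median gene, 0 of 43 were with A771726 (5.73%). The lowest A771726 changes were in the ribosomal protein gene RPS20 (−1.33) and the translation factor genes EIF4A2 (−1.22) and EEF1B2 (−1.22), and the highest in AP1G1 (−0.07), EIF4G2 (−0.16) and PPAN (−0.16). With leflunomide the lowest were EEF1B2 (−0.84), RPL10 (−0.74) and RPL23 (−0.71), and the highest RPS13 (0.46), AP1G1 (0.42) and PRPF39 (0.30).

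Of the 14 members, 8 overlap a protein-coding gene in the GENCODE 29 annotation, and whether reads were counted by strand is not given in the sources used here, so reads of overlapping genes cannot be told apart. SNHG12 (−1.22 with A771726, −0.97 with leflunomide) overlaps TRNAU1AP, which had −1.24 and −1.01. SNHG7 (−1.31 and −0.35) overlaps FAM69B, with −1.46 and −0.54. SNHG10 (−1.10 and −0.43) overlaps GLRX5, which had the opposite signs (0.34 and 0.76). GLRX5 lies near the filter value of 0.0087, with gene body densities of 0.01285 with A771726, 0.01795 with leflunomide and 0.0097 in DMSO. GAS5 (−1.31 and −0.66) overlaps ZBTB37, with −0.18 and 0.24. SNHG4 shares its promoter values with MATR3 in all 3 groups (0.0537, 0.154 and 0.128), so these cannot be assigned to either gene. SNHG3 lies on the same strand as RCC1, whose gene body changed by −0.67 and −0.14, beside −1.31 and −0.83 in SNHG3. ZNFX1, across from ZNFX1-AS1, changed by −1.06 and −0.16, beside −1.15 and −0.51 in ZNFX1-AS1.

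Genes with a like pattern over the 3 groups were sought among those of similar density. For SNHG3 they were RPL31, METTL12 and SNORA16A, of 81 genes compared, with largest differences of 0.01, 0.05 and 0.08 on the log2 scale. For ZNFX1-AS1 they were SNORA26, HIST1H2AI and HIST1H3A, of 41 genes compared (0.06, 0.06 and 0.08). SNORA16A lies in SNHG12 and SNORA26 in SNHG13, so these 2 share reads with another member.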

How the data were processed

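GRO-seq was deposited as tables of group means, from 2 libraries in each of 3 groups. Per the file headers, the authors give mean promoter and gene body values (read densities, a signal on a scale the headers do not name) and a mean traveling ratio per group, with its fold for each compound over DMSO. The headers write A771762, read here as A771726. The submitters' processing notes name hg18, Bowtie 0.12.9 and bedtools. Scaling, windows and annotation release: not given in the sources used here. No library depth could be read from the files, and the number of libraries limits the precision.

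The row of highest mean gene body density was kept per symbol. Genes at or above the 30th percentile were compared on log2(density + pseudocount), with pseudocounts of 0.0022 (gene body) and 0.01735 (promoter), which understates the change of low genes. Ratios had no pseudocount. Pseudocounts were first taken over all rows and then over 1 row per gene, as in earlier processing of these data. Library values were solved from the means and ratios. A single solution was found in 95.2% (A771726), 96.1% (leflunomide) and 92.1% (DMSO) of rows with a promoter value and a ratio, and 80.0%, 76.9% and 77.9% of promoter values lay on whole reads, where 1 read is worth 0.0241 and 0.0313, 0.0347 and 0.0376, and 0.0438 and 0.0520. Libraries that could be told apart are numbered 1 and 2 by this value, which does not match them to the labels' replicates. The value of 1 read is smaller with A771726 than in DMSO, so the same number of promoter reads gives a lower density with A771726. Whether this follows library depth was not tested. Nothing says that replicates came from separate cultures, so intervals cover the spread between these libraries, which may be technical.

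limma 3.58.1 (R 4.3.3, trend and robust options, all groups) was fitted with Benjamini-Hochberg adjustment at 0.05. In all, 29 limma fits were run. The first were on the 3199 genes with identified libraries, for gene body, promoter and ratio. The fit shown, gene bodies of 4578 genes, replaced them after their results were seen because it holds 9 members and not 5. The 11 fits with all libraries gave 0 calls. On simulated data for A771726 over DMSO with 4578 genes, 51.5% of 200 genes changed 4-fold were recovered, with 7 false calls.

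The members and lists were chosen with earlier results of these data known. The motif windows, the 1244 densest genes as a background and the overlapping genes were added after values were seen. Named are every member, the 3 highest and 3 lowest protein-coding hosts for each compound, the small RNAs in SNHG3 and ZNFX1-AS1 with the 3 highest and 3 lowest of the other loci, and the 3 genes of most like pattern for SNHG3 and ZNFX1-AS1. Others were named after their values were seen. Alternatives were other pseudocounts, filters, row choices and centring, and leaving out each library.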

Additional observations from a re-analysis of the deposited data

How the results depend on the processing

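A filter cannot alter a member's gene body change, nor a pseudocount added to both means its sign, so neither tests the sign. The row choice could alter it only in SNHG4, SNHG7 and ZNFX1-AS1, whose rows differ, and there the sign held. Centred on the median gene, the members' median gene body change was −0.70 for A771726 over DMSO and −0.17 for A771726 over leflunomide, with 2 and 0 members at least 2-fold lower. The same centring gave −0.75 and −0.10 for the hosted small RNAs and −0.22 and 0.014 for the protein-coding hosts, the last with the opposite sign. Of 210 gene body values of members under alternatives, 24 moved beyond the spread between libraries and 4 changed sign, all by centring. The 4 are SNHG1 (0.32), SNHG11 (0.13), SNHG12 (0.23) and SNHG9 (0.40) for A771726 over leflunomide. The other 182 include the filter settings. Promoters at least 2-fold lower numbered 1 when centred, against 0, for leflunomide over DMSO. For A771726 over leflunomide they numbered 1 when centred and 1 with a 5 times larger pseudocount, against 6. The members' median ratio change was −0.21 (leflunomide over DMSO) and −0.39 (A771726 over DMSO) when centred, and −0.0037 (A771726 over DMSO) and −0.055 (A771726 over leflunomide) with the DMSO limit of 7.5 in every group, so its sign depends on these choices.

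Leaving out each library in turn was run on the 5 members with identified libraries (SNHG5, SNHG6, SNHG11, SNHG13 and ZNFX1-AS1). Their median gene body change ranged from −1.65 to −0.94 for A771726 over DMSO, −0.68 to −0.40 for leflunomide over DMSO and −1.36 (without A771726 library 1) to −0.46 (without A771726 library 2) for A771726 over leflunomide, against −0.78 with all libraries. These 5 differ from the whole set in the other measures: with all libraries their median promoter change was −0.28 for A771726 over DMSO and 0.15 for leflunomide over DMSO (−1.14 and −0.53 over 14 members), and their median ratio change 0.97 and 0.79 (0.03 and 0.06 over 13 members). Promoter medians ranged from −0.55 to −0.18, −0.13 to 0.42 and −0.45 to −0.33 in the same order of comparisons, and the leflunomide value is below 0 only without DMSO library 2. Ratio medians ranged from 0.76 to 1.18 (1.14 without A771726 library 1), 0.50 to 1.00 and −0.040 to 0.82, and the last is below 0 only without leflunomide library 1. In limma on 3199 genes, leaving out A771726 library 1 gave 85 gene body calls for A771726 over DMSO, all lower, and leaving out DMSO library 1 gave 1 for each compound over DMSO, against 0 with all libraries; the lone library is assumed to vary like the others. The cause was not tested. For promoters, calls with a library left out reached 22 (leflunomide over DMSO, all higher, without DMSO library 1), 15 and 8 in the other comparisons, and for ratios 30 (A771726 over DMSO, without DMSO library 1). No paired analysis was possible because the columns carry no replicate letters. Without counts, limits of detection per gene body are unknown, and members at a few promoter reads (SNHG4, SNHG6, SNHG7, SNHG10, SNHG11, ZNFX1-AS1) have no stable promoter fold.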
